A study of Rattus norvegicus with 7 samples.

Results

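The mRNAs of 9 protein kinase subunits were followed in RNA immunoprecipitates (RIP) of rat cortical neurons. They encode the catalytic subunits *Prkaca* and *Prkacb* and the regulatory subunits *Prkar1a*, *Prkar2a* and *Prkar2b* of protein kinase A (PKA), and the protein kinase C (PKC) isoforms *Prkca*, *Prkcb*, *Prkce* and *Prkcz*. These genes were chosen by their platform gene symbols, with their signals, detection p-values and differences between TRF2-S RIP and IgG RIP on these same arrays already known, so the values below are descriptions, no p-value of a member is given, and counts of members called support nothing. They are 9 of the 13337 named genes on the array, and each is read by 1 probe. TRF2-S is a short form of the telomere protein TRF2 that binds RNA.

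RNA was co-immunoprecipitated with a polyclonal antibody to TRF2-S, or with rabbit IgG as control, from extracts of Sprague-Dawley cerebral cortex neurons taken at embryonic day 18 and harvested on culture day 9, and was read on Illumina rat Ref-12 BeadChips. The TRF2-S RIP was hybridized to 2 arrays and the IgG RIP to 5, which the labels call IgG1, IgG2, IgG3, IgG3_0 and IgG3_1x and number as replicates of 1 group. The antibody is the only difference between the groups that the labels name, and they name no genetic modification or drug. Nothing in the labels says whether arrays of a group came from separate cultures, or whether the 3 arrays named IgG3 share RNA, so their spread may be technical. No array of the input RNA was analysed here, so a RIP signal is not set against the level of the mRNA in the neurons.

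PKA is held inactive by its regulatory subunits, which bind cyclic AMP and then free the catalytic subunits. A-kinase anchoring proteins (AKAPs) place the holoenzyme at synapses, channels and the cytoskeleton. The PKC isoforms differ in what turns them on: *Prkca* and *Prkcb* encode conventional isoforms that need calcium and diacylglycerol, *Prkce* encodes a form that needs diacylglycerol but no calcium, and *Prkcz* encodes an atypical form that needs neither. In brain these kinases are known for phosphorylating synaptic and growth cone proteins, and *Prkcz* also gives rise to the shorter, constitutively active kinase PKM zeta.

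Signals are given as log2 intensity, Z-score transformed on each array and put on 1 common log2 scale with a mean of 6.98 and an SD of 1.21. The 4 arrays of TRF2-S, IgG1 and IgG2 correlated with each other at 0.977 to 0.991 over all tested probes. The arrays named IgG3 correlated with these 4 at 0.875 to 0.933 and among themselves at 0.979 to 0.999, and were brighter, with mean intensities of 298 to 608 against 155 to 216. Because they stand apart, each tested member is given against IgG1 and IgG2 and against all 5 IgG arrays. Some other genes are given against IgG1 and IgG2 only. Both comparisons share the TRF2-S arrays, IgG1 and IgG2. *Terf2*, the gene of the precipitated protein, was above background on both TRF2-S arrays and on neither IgG1 nor IgG2. Its signal was at least 1.28-fold higher in the TRF2-S RIP than on these controls (adjusted p = 0.265). It was also above background on 2 of the arrays named IgG3. Against all 5 IgG arrays the log2 difference was 0.39 (SE 0.10, adjusted p = 0.406).

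Of the 9 kinase probes, 7 were above background (detection p below 0.02) on all 7 arrays. *Prkar2a* and *Prkca* were above background on IgG2 only and were left out of the tests, which required detection on at least 2 arrays. Against IgG1 and IgG2, *Prkce* was 1.70-fold higher in the TRF2-S RIP and *Prkcz* 1.44-fold lower, while *Prkar2b* was 1.25-fold higher and *Prkaca* 1.24-fold lower. *Prkacb*, *Prkar1a* and *Prkcb* differed from these controls by at most 0.12 on the log2 scale, and their arrays overlapped. Against all 5 IgG arrays, *Prkaca* was the 1 member whose TRF2-S arrays lay apart from every IgG array.

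**Figure D1:**
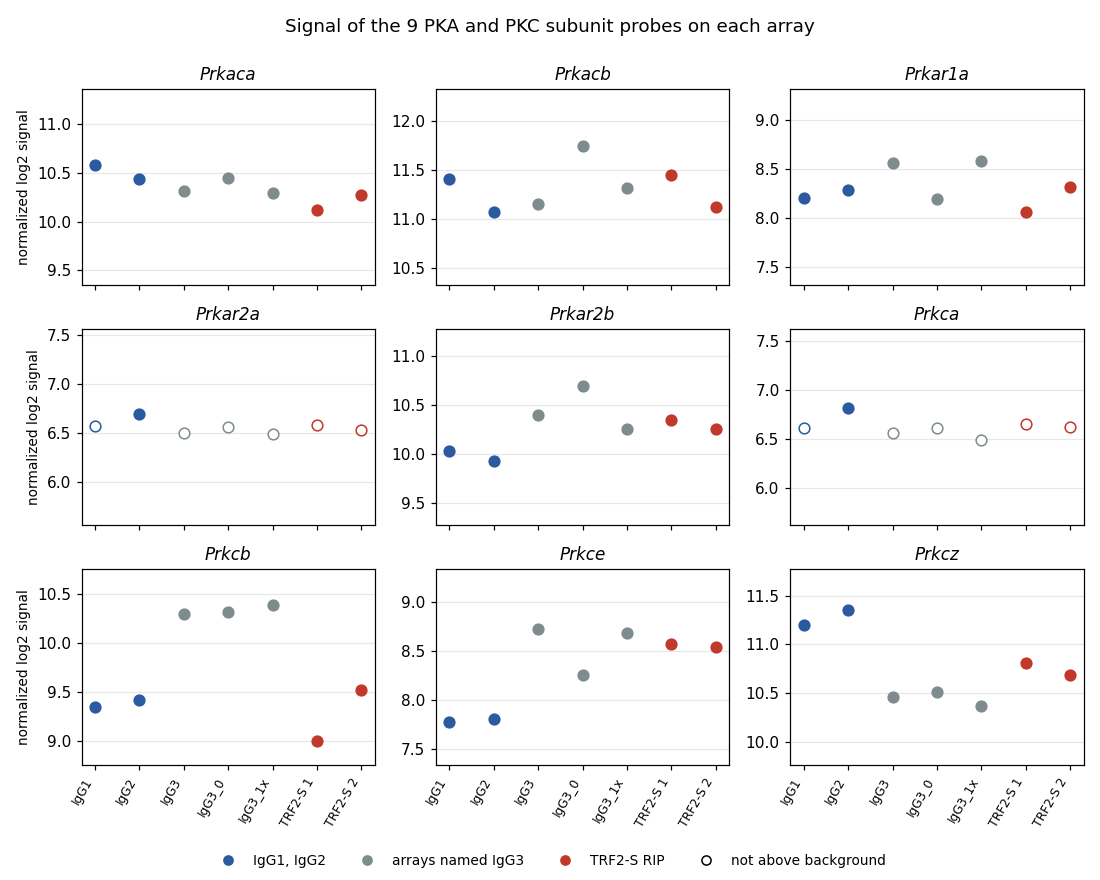
Normalized log2 signal (vertical axis, the same span in every panel) of each kinase subunit probe on each of the 7 arrays, with IgG1 and IgG2 in blue, the arrays named IgG3 in grey and TRF2-S RIP in red. Open circles mark a probe not above background. The TRF2-S points of *Prkce* (8.58 and 8.54) sit above IgG1 and IgG2 (7.78 and 7.81) but within the arrays named IgG3 (8.26 to 8.72).

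*Prkaca*, the gene of the main PKA catalytic subunit of brain and other tissues, had a log2 signal of 10.12 in the first TRF2-S RIP and 10.27 in the second. It was at 10.57 (IgG1), 10.44 (IgG2), 10.31 (IgG3), 10.44 (IgG3_0) and 10.29 (IgG3_1x) on the IgG arrays. Both TRF2-S arrays were the lowest of the 7, although the gap between TRF2-S array 2 and IgG3_1x was small. The mean was 10.20 ± 0.11 (SD, n = 2) in the TRF2-S RIP and 10.51 ± 0.095 (SD, n = 2) on IgG1 and IgG2, a log2 difference of -0.31 (SE 0.12). Against all 5 IgG arrays, whose mean was 10.41 ± 0.11 (SD, n = 5), the difference was -0.22 (SE 0.12).

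*Prkacb*, which encodes the other PKA catalytic subunit abundant in neurons, was at 11.44 and 11.12 on the TRF2-S arrays. The IgG arrays were at 11.40, 11.07, 11.15, 11.75 and 11.32 in the order given above. The TRF2-S values lay inside the IgG range in both comparisons. The log2 difference was 0.05 (SE 0.16) against IgG1 and IgG2 and -0.05 (SE 0.20) against 5 IgG. The difference between the TRF2-S and IgG RIP was smaller than the spread between arrays of 1 group, whose SD was 0.23 for TRF2-S and 0.24 for IgG1 and IgG2. The sign against IgG1 and IgG2 turned when IgG2 (-0.12) or TRF2-S array 1 (-0.11) was left out.

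Of the regulatory subunits, *Prkar2b* encodes RII beta, the form most typical of neurons and bound by AKAPs. Its log2 signal was 10.35 and 10.25 on the TRF2-S arrays against 10.03 (IgG1), 9.93 (IgG2), 10.40 (IgG3), 10.70 (IgG3_0) and 10.25 (IgG3_1x) on the IgG arrays. Both TRF2-S arrays were above IgG1 and IgG2 and within the range of the arrays named IgG3. The TRF2-S mean of 10.30 ± 0.064 (SD, n = 2) was 0.32 (SE 0.11) above the mean of IgG1 and IgG2, 9.98 ± 0.072 (SD, n = 2). Against 5 IgG arrays (10.26 ± 0.30, SD, n = 5) the difference was 0.04 (SE 0.21), and it turned negative under each of the 4 other scalings tried.

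*Prkar1a*, which encodes the regulatory subunit RI alpha found in most cell types, was at 8.05 and 8.32 on the TRF2-S arrays. It was at 8.20 (IgG1), 8.28 (IgG2), 8.56 (IgG3), 8.19 (IgG3_0) and 8.58 (IgG3_1x) on the IgG arrays. TRF2-S array 1 was the lowest of the 7 and TRF2-S array 2 lay among the IgG arrays. The differences were -0.05 (SE 0.13) against IgG1 and IgG2 and -0.17 (SE 0.16) against 5 IgG. The first was 0.08 without TRF2-S array 1, and the second was 0.02 after quantile normalization with or without background correction.

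*Prkar2a*, which encodes the more widely expressed RII alpha, gave intensities of 79 and 79.5 on the TRF2-S arrays and 75.7 to 122.6 on the IgG arrays. Its detection p was 0.0133 on IgG2 and 0.0546 to 0.112 elsewhere. The probe therefore carries only a bound in the TRF2-S RIP, and no fold is given.

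*Prkce*, the calcium-independent isoform, had the largest difference of the 9 against IgG1 and IgG2. Its intensity was 227.3 and 301 on the TRF2-S arrays against 150.8 (IgG1), 178.4 (IgG2), 945.5 (IgG3), 339 (IgG3_0) and 785.5 (IgG3_1x) on the IgG arrays. On the common log2 scale these were 8.58 and 8.54 for the TRF2-S RIP against 7.78, 7.81, 8.72, 8.26 and 8.69. Both TRF2-S arrays lay close together, as did IgG1 and IgG2, and TRF2-S was apart from these but not from the arrays named IgG3. The mean was 8.56 ± 0.028 (SD, n = 2) in the TRF2-S RIP and 7.79 ± 0.018 (SD, n = 2) on IgG1 and IgG2, a log2 difference of 0.77 (SE 0.10). Of all tested probes, 0.653% had a larger difference.

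Against all 5 IgG arrays the *Prkce* difference was 0.31 (SE 0.29), since the arrays named IgG3 averaged 8.56 ± 0.26 (SD, n = 3), the same as the TRF2-S RIP. Its sign depended on the scaling. It was -0.21 when each array was centred on its median, where the median of all tested probes was -0.34, and -0.49 without normalization, where that median was -0.62. Relative to the median of all tested probes it was 0.38 on the common scale, 0.52 after quantile normalization, 0.71 after background correction and quantile normalization, and 0.13 in both settings that turned its sign. As a rank on its own array, *Prkce* stood at the percentiles 90.9 and 89.6 of all probes in the TRF2-S RIP, 85.1 and 84.4 on IgG1 and IgG2, and 87.7 to 88.7 on the arrays named IgG3. By rank, both TRF2-S arrays were the highest of the 7.

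*Prkcz*, the atypical isoform, ran the other way. Its log2 signal was 10.81 and 10.68 on the TRF2-S arrays against 11.19 (IgG1), 11.35 (IgG2), 10.46 (IgG3), 10.52 (IgG3_0) and 10.37 (IgG3_1x) on the IgG arrays. The TRF2-S arrays lay between the 2 sets of IgG arrays and overlapped neither. The mean of 10.75 ± 0.093 (SD, n = 2) was 0.52 (SE 0.12) below that of IgG1 and IgG2, 11.27 ± 0.11 (SD, n = 2), and 1.09% of tested probes had a lower difference. Against all 5 IgG arrays the difference was -0.03 (SE 0.30). The files do not say whether the probe reads the full-length kinase, PKM zeta or both.

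*Prkcb*, which encodes the conventional isoforms beta I and beta II, varied most over the 7 arrays, with a range of 1.39. Its log2 signal was 9.00 and 9.52 on the TRF2-S arrays against 9.35 (IgG1), 9.42 (IgG2), 10.30 (IgG3), 10.32 (IgG3_0) and 10.39 (IgG3_1x) on the IgG arrays. The TRF2-S arrays fell on either side of IgG1 and IgG2, and all 3 arrays named IgG3 were above the other 4. Against IgG1 and IgG2 the difference was -0.12 (SE 0.17), and it was 0.14 without TRF2-S array 1 and -0.38 without TRF2-S array 2. Against 5 IgG arrays it was -0.69 (SE 0.35), the largest of the 7 tested members in that comparison. That value was -0.43 without TRF2-S array 1, and it came from the arrays named IgG3.

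*Prkca*, the other conventional isoform, gave intensities of 82.1 and 84.5 on the TRF2-S arrays and 77.3 to 129.3 on the IgG arrays. It was above background on IgG2 (detection p 0.00364), and just outside the limit on IgG3 (0.0242) and TRF2-S array 2 (0.0279). Its log2 value differed from that of IgG1 and IgG2 by -0.08, and by 0.03 without IgG2, the 1 array that measured it, so no fold is given.

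**Figure D2:**
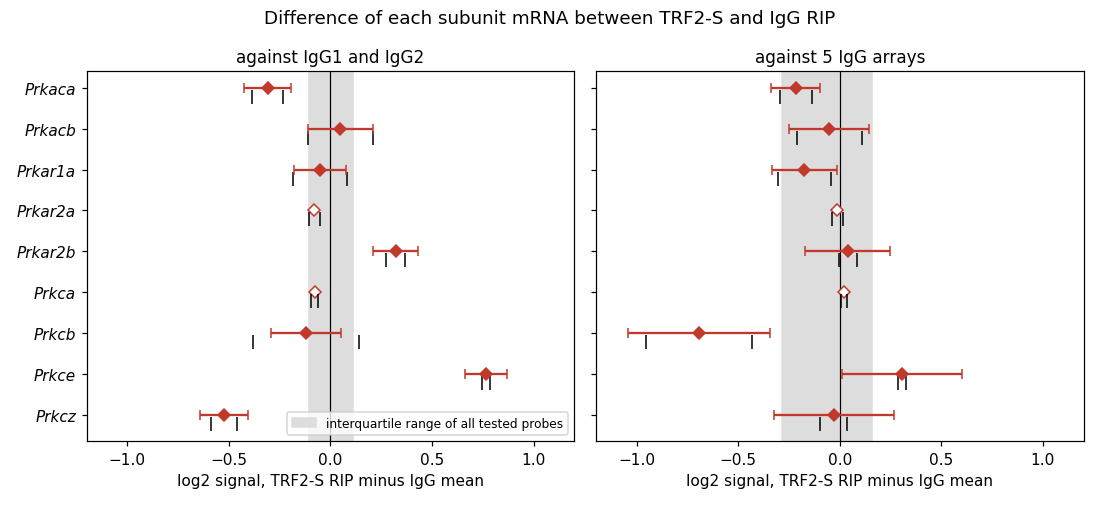
Log2 signal of the TRF2-S RIP minus the mean of IgG1 and IgG2 (left) or of 5 IgG arrays (right) for each kinase subunit mRNA. Diamonds are the difference of group means, bars the limma SE, black ticks the 2 TRF2-S arrays, open diamonds the probes left out of the tests, and the grey band the interquartile range of all tested probes (-0.11 to 0.11 left, -0.28 to 0.16 right). *Prkce* at 0.77 and *Prkcz* at -0.52 lie farthest from 0 on the left, and *Prkcb* at -0.69 on the right.

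Across the 7 tested members, 3 differences were above 0 and 4 below against IgG1 and IgG2, with a median of -0.05. Over all tested probes 51.4% were above 0 and the median was 0.0048. The TRF2-S arrays did not overlap IgG1 and IgG2 for 4 members. *Prkce* and *Prkar2b* were above, as were 22.5% of all 9187 tested probes, and *Prkcz* and *Prkaca* were below, as were 19.4%. Limma called 0 of the 7 members at an adjusted p of 0.05, against 0.152% of all tested probes, which were 13 probes higher and 1 lower. At the unadjusted 0.05 level 2 members were higher and 2 lower, as were 598 and 553 of all 9187 tested probes. The count of all probes called was 318 higher and 236 lower after quantile normalization, and 82 higher and 20 lower with background correction as well. The members were chosen with this comparison known, and nothing is read from their counts.

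Against all 5 IgG arrays, 2 of the 7 differences were above 0 and 5 below, with a median of -0.05. Over all tested probes 41.3% were above 0 and the median was -0.07. Relative to the median of all tested probes, *Prkaca* was at -0.15, *Prkcb* at -0.62 and *Prkcz* at 0.04, and with median centring at -0.64, -1.04 and -0.52. No member had both TRF2-S arrays above every IgG array, where 10.3% of tested probes did, and *Prkaca* had both below, where 11.6% did. Limma called 0 members, against 0.0327% of all tested probes (3 probes, all higher), and 0 members reached the unadjusted 0.05 level, which 557 probes reached as higher and 557 as lower. The z-ratio scales a probe's difference in mean Z-score by the SD of such differences over all probes. Against IgG1 and IgG2 it was 5.01 for *Prkce*, 2.10 for *Prkar2b*, -2.03 for *Prkaca* and -3.43 for *Prkcz*, with the other 3 tested members between -0.79 and 0.32. Against 5 IgG it was 1.11 for *Prkce* and -2.50 for *Prkcb*, with the other 5 between -0.78 and 0.14.

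The IgG arrays themselves differed in these mRNAs. From IgG1 and IgG2 to the arrays named IgG3, *Prkcb* differed by 0.95, *Prkce* by 0.76, *Prkar2b* by 0.47 and *Prkcz* by -0.82 on the log2 scale. These gaps were larger than those between TRF2-S and IgG1 and IgG2 for *Prkcb*, *Prkar2b* and *Prkcz*, and like in size for *Prkce*. *Prkcb* had all 3 arrays named IgG3 above the other 4, as had 33.8% of all tested probes, and *Prkcz*, with the near-background *Prkca*, had all 3 below, as had 24.2%. The other 5 members differed by -0.16 to 0.20. In raw intensity all 9 were higher on the arrays named IgG3, by 1.37-fold for *Prkca* to 6.27-fold for *Prkcb*.

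Pairs of these mRNAs were also compared within each array, with *Prkce* in every pair because of its known difference from IgG1 and IgG2. The intensity of *Prkce* over that of *Prkcz* was 0.307 and 0.242 on the TRF2-S arrays against 0.144 (IgG1), 0.108 (IgG2), 0.203 (IgG3), 0.225 (IgG3_0) and 0.224 (IgG3_1x) on the IgG arrays. In raw intensity both TRF2-S arrays were above all 5 IgG arrays, and the ratio was 2.19-fold higher than on IgG1 and IgG2 and 1.57-fold higher than on 5 IgG arrays. On the common log2 scale, *Prkce* minus *Prkcz* was -2.24 and -2.14 in the TRF2-S RIP, -3.41 and -3.54 on IgG1 and IgG2, and -1.74, -2.26 and -1.68 on IgG3, IgG3_0 and IgG3_1x. There, IgG3 and IgG3_1x lay above both TRF2-S arrays, so the separation from these arrays was lost.

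In raw intensity the *Prkce* ratio was also higher on both TRF2-S arrays than on any IgG array over *Prkaca*, *Prkcb*, *Prkacb* and *Prkar2b*, by 1.90-fold, 1.67-fold, 1.56-fold and 1.31-fold against IgG1 and IgG2. Over *Prkar1a* it was 1.61-fold higher than on IgG1 and IgG2, but TRF2-S array 2 and IgG3 were both at 1.16. On the common log2 scale, the TRF2-S arrays lay above all 5 IgG arrays for *Prkce* minus *Prkcb* and *Prkce* minus *Prkar1a*, and overlapped them for *Prkaca*, *Prkacb* and *Prkar2b*. Raw ratios of a dim to a bright probe move with the spread and the background of each array, which differed: the log2 SD was 0.92 on TRF2-S array 1 and 1.61 on IgG3, and the median intensity 73.1 to 113.4 over the arrays. The intensities were not background-subtracted. All of these ratios share *Prkce*, so they are not separate results, and nothing is read from the number that lay apart. How often pairs of other probes lie apart in this way was not tested.

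**Figure D3:**
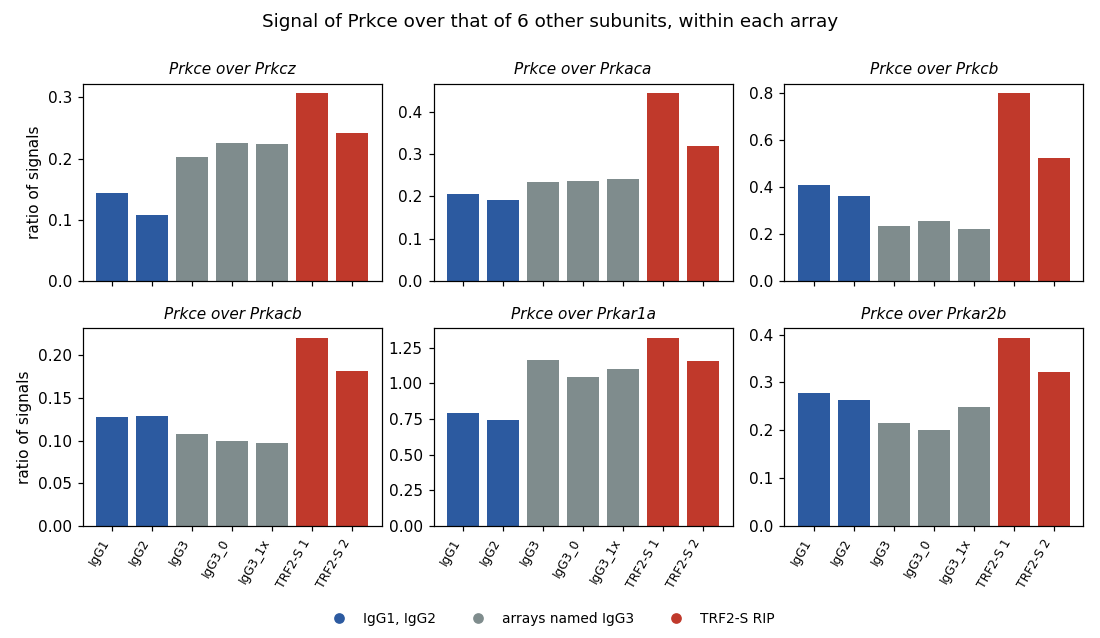
Ratio of the raw *Prkce* intensity to that of each of 6 other kinase subunits on each array (vertical axis, from 0, own span in each panel), with IgG1 and IgG2 in blue, the arrays named IgG3 in grey and TRF2-S RIP in red. Both TRF2-S bars are the highest in 5 panels, as at 0.307 and 0.242 over *Prkcz* where IgG reached 0.225, and over *Prkar1a* TRF2-S array 2 and IgG3 are level at 1.16. On the common log2 scale the arrays overlap for *Prkcz*, *Prkaca*, *Prkacb* and *Prkar2b*. All panels share *Prkce*, chosen for its known difference, so they are not separate results.

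For the 3 members with the widest range over the arrays, the probes with the nearest profile were found by the root mean square of the log2 differences over 7 arrays, each profile centred on its own mean. *Prkcb* ran nearest to *Reep6*, an endoplasmic reticulum shaping protein (0.053), and *Pmp22*, a myelin membrane protein (0.054). *Prkcz* ran nearest to *Camk2b*, the beta subunit of the calcium/calmodulin-dependent kinase CaMKII (0.055), and *Psmd11*, a subunit of the proteasome (0.069). *Prkce* ran nearest to *Agtpbp1*, a carboxypeptidase that trims tubulin tails (0.12), and *Cadm1*, a synaptic adhesion molecule (0.13). The arrays named IgG3 were the 3 highest for *Prkcb* and the 3 lowest for *Prkcz*, while IgG1 and IgG2 were the lowest for *Prkce*.

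The wider pathway was read from 10 lists with 107 genes, of which 84 are on the array and 45 were tested. Limma called 0 of the 45 in either comparison. At the unadjusted 0.05 level 2 were higher and 7 lower against IgG1 and IgG2, and 3 higher and 4 lower against 5 IgG. Of all 9187 probes tested, 598 were higher and 553 lower at that level in the first comparison, and 557 each way in the second. Of the 45 genes, 17 lay above 0 against IgG1 and IgG2 with a median of -0.06, and 10 against 5 IgG with a median of -0.24. Over all tested probes 51.4% and 41.3% lay above 0, and the medians were 0.0048 and -0.07.

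Beside the PKA subunits stand the inhibitor peptides that bind the free catalytic subunit. *Pkig*, the gamma inhibitor, was at 10.80 ± 0.11 (SD, n = 2) in the TRF2-S RIP and 11.25 ± 0.082 on IgG1 and IgG2, a difference of -0.45 (SE 0.11, adjusted p = 0.21). Against 5 IgG it differed by -0.24 (SE 0.17), and the arrays overlapped. *Pkia*, the alpha inhibitor, differed by 0.14 (SE 0.12) against IgG1 and IgG2 and by 0.58 (SE 0.28, adjusted p = 0.406) against 5 IgG. Of 14 AKAPs on the array 4 were tested, and 3 of the 4 lay above 0 against IgG1 and IgG2 (2 after quantile normalization), but 1 of the 4 against 5 IgG. *Akap9*, a centrosome and Golgi scaffold, differed by 0.21 (SE 0.13) against IgG1 and IgG2 and by -0.35 (SE 0.35) against 5 IgG. *Akap12*, not above background on either TRF2-S array, differed by -0.04 in both comparisons.

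Upstream of PKA, 4 of 9 adenylyl cyclases on the array were tested, and 1 of the 4 lay above 0 against IgG1 and IgG2 and 0 against 5 IgG. *Adcy3* differed by -0.13 (SE 0.10) and *Adcy2* by -0.09 (SE 0.12) against IgG1 and IgG2, and by -0.49 and -0.52 against 5 IgG, with adjusted p = 0.406 for both. Of the phosphodiesterases that break down cyclic AMP, 5 of 16 were tested. *Pde2a* differed by 0.26 (SE 0.12, adjusted p = 0.433) against IgG1 and IgG2 and by 0.57 (SE 0.21, adjusted p = 0.406) against 5 IgG. Over the 5 scalings, its difference against 5 IgG ran from -0.12 to 1.01, so its sign depended on the scaling. *Pde4a* was not above background on either TRF2-S array, at least 1.07-fold lower than on IgG1 and IgG2, of which 1 of 2 measured it (adjusted p = 0.378).

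Downstream of cyclic AMP, 6 of 8 effectors on the array were tested and 2 lay above 0 against IgG1 and IgG2. *Crtc2*, a coactivator of the transcription factor CREB, was at 8.51 ± 0.14 in the TRF2-S RIP and 9.02 ± 0.11 on IgG1 and IgG2, a difference of -0.52 (SE 0.12, adjusted p = 0.176). Against 5 IgG it differed by -0.31 (SE 0.18), and the arrays overlapped. *Ppp1r1a*, a phosphatase inhibitor that PKA phosphorylates, differed by -0.12 (SE 0.11) against IgG1 and IgG2.

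The other PKC isoforms were dim. *Prkcd*, *Prkch*, *Prkci* and *Prkcq* were tested and differed by -0.06 to 0.06 against IgG1 and IgG2, and *Prkcd* was above background on none of the TRF2-S, IgG1 and IgG2 arrays. Of the related protein kinases D, *Prkd2* differed by -0.09 and *Prkd1* by 0.03, and *Prkd1* was also not above background on these 4 arrays.

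Of the enzymes around diacylglycerol, 6 of 10 phospholipases C on the array were tested. *Plcb1*, which G protein-coupled receptors activate, was at 7.70 ± 0.031 in the TRF2-S RIP and 7.39 ± 0.072 on IgG1 and IgG2, a difference of 0.31 (SE 0.11, adjusted p = 0.305), but lay 0.68 below the mean of 5 IgG arrays (adjusted p = 0.491). *Plcg1*, which receptor tyrosine kinases activate, differed by -0.25 (SE 0.16) and by -0.82 (SE 0.35, adjusted p = 0.406). All 6 lay below 0 against 5 IgG, with a median of -0.48. Of all tested probes, 41.3% lay above 0 in that comparison, with a median of -0.07. Of the diacylglycerol kinases, which end the diacylglycerol signal, *Dgkz* differed by 0.23 (SE 0.16) and *Dgka* by -0.12 (SE 0.12) against IgG1 and IgG2. Against 5 IgG they differed by -0.14 (SE 0.26) and -0.11 (SE 0.10).

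Among PKC substrates and partners, 8 of the 10 tested lay below 0 against IgG1 and IgG2, with a median of -0.24, and 2 of the 10 lay above 0 under all 5 scalings. Of all tested probes, 51.4% lay above 0 in that comparison on the common scale. *Pick1*, a scaffold that binds PKC alpha and AMPA receptors, was at 7.70 ± 0.060 (SD, n = 2) in the TRF2-S RIP and 8.43 ± 0.32 on IgG1 and IgG2. Its difference was -0.73 (SE 0.16, adjusted p = 0.164), and -0.64 (SE 0.16, adjusted p = 0.406) against 5 IgG. *Marcksl1*, which encodes an actin-linked PKC substrate of growing neurites, was at 12.80 ± 0.42 against 12.04 ± 0.64, a difference of 0.77 (SE 0.31, adjusted p = 0.369), and was 2.13 (SE 0.80, adjusted p = 0.406) above the mean of 5 IgG arrays. Over the 5 scalings, the difference against 5 IgG ran from 0.82 to 2.13 for *Marcksl1* and from -1.24 to -0.45 for *Pick1*. The TRF2-S arrays lay above all 5 IgG arrays for *Marcksl1*, as for 10.3% of all tested probes. They lay below all 5 for *Pick1*, as for 11.6%. *Nrgn* and *Add2* of the same list also lay below in both comparisons. None of these genes passed the test.

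**Figure D4:**
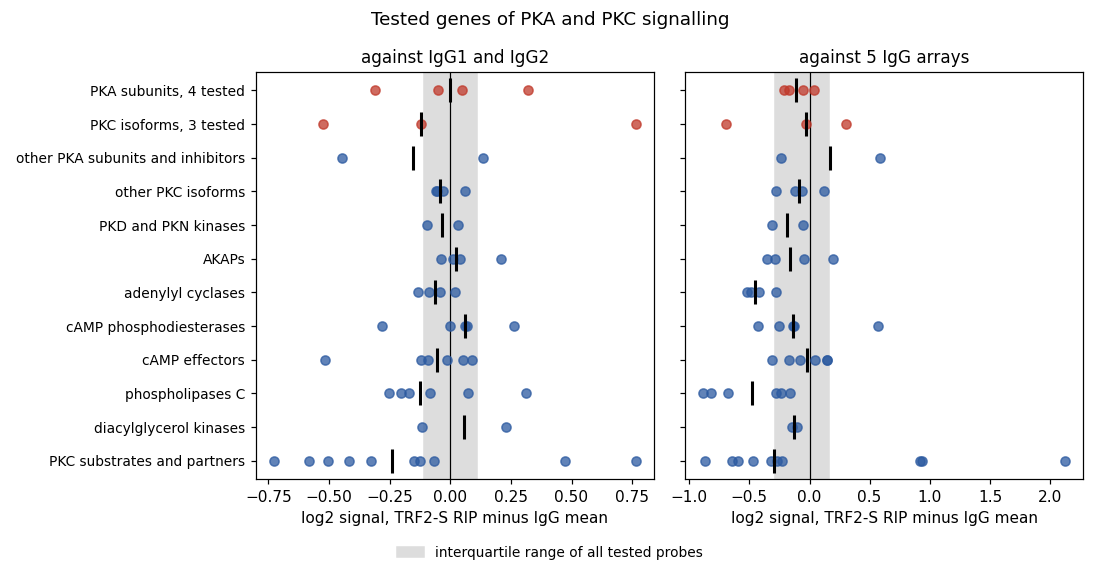
Log2 signal of the TRF2-S RIP minus the IgG mean for the 7 tested kinase subunits (red) and 45 tested genes of 10 related lists (blue), against IgG1 and IgG2 (left) and 5 IgG arrays (right, wider axis). Each point is 1 gene, black bars are list medians and the grey band spans the interquartile range of all tested probes. The PKC substrates run from *Pick1* at -0.73 to *Marcksl1* at 0.77 on the left, and to 2.13 on the right, its highest value among the scalings tried.

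Markers of the cell types that such a culture can hold were read beside these results. In a precipitate, the number of cells of a type, their RNA per cell and the RNA brought down with each antibody cannot be told apart. A marker difference between TRF2-S and IgG RIP is therefore not a measure of the cells in the culture. All 7 neuron markers were tested, 4 lay above 0 against IgG1 and IgG2, and their summed intensity was 3875 to 7025 on the TRF2-S arrays, 4654 to 5650 on IgG1 and IgG2 and 16079 to 37680 on the arrays named IgG3. Of 6 astrocyte markers 4 were tested (*Gfap*, *Slc1a3*, *S100b* and *Aldoc*), and 0 of the 4 lay above 0 against IgG1 and IgG2, with a median of -0.29. Against 5 IgG, 1 of the 4 lay above 0, with a median of -0.18. Of all tested probes, 51.4% lay above 0 against IgG1 and IgG2 and 41.3% against 5 IgG. The summed intensity of these astrocyte markers with *Aqp4*, which was not above background on any array, was 1298 to 2218 on the TRF2-S arrays, 1759 to 2191 on IgG1 and IgG2 and 3042 to 7805 on the arrays named IgG3. *Mog* and *Olig2* of the oligodendrocyte lineage, *Itgam*, *Cx3cr1* and *Ptprc* of microglia and *Cdh5* and *Vwf* of endothelium were not above background on any array. Other markers of these types were: *Cnp* on both TRF2-S and all 5 IgG arrays, and *Sox10* and *Aif1* on both TRF2-S and 4 IgG arrays. *Cldn5* was above background on 3 IgG arrays and *Mbp* on 2, and neither on a TRF2-S array. Against IgG1 and IgG2, *Cnp* differed by -0.37, *Sox10* by 0.02 and *Aif1* by 0.05. The part of glial RNA in the kinase values was not tested.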

How the data were processed

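The authors deposited a linear signal intensity per probe and array, not normalized between arrays, and a detection p-value that sets each intensity against the negative control beads of that array. The methods name BeadStudio 1.5 and the submitters' processing notes GenomeStudio 2011.1. The deposited score is a per-array Z-score of log intensity, recomputed here to within 5e-10, with higher meaning brighter and only the log base unknown. Its median was -0.394, -0.407, -0.474, -0.397 and -0.467 on the IgG arrays, in the order of their replicate numbers, and -0.378 and -0.423 on the TRF2-S arrays.

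Here each array's log2 intensities were turned into Z-scores and rescaled to a shared mean of 6.98 and SD of 1.21, with no background subtraction, which understates changes of dim probes. Testing was limited to probes detected (p under 0.02) on 2 or more arrays (9187 of 22523, 6592 named genes) and used limma 3.58.1 in R 4.3.3 and Benjamini-Hochberg adjustment over all of them. For a gene with several probes the brightest tested probe is given. The platform annotation gives 1 symbol to 13793 probes, several to 0 and none to 8730. Bounds set the brighter group's mean against that of the dimmer, with each of its arrays raised to at least the lowest detected signal. Precision is limited by having few arrays.

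The members and gene lists were chosen with earlier results of these data known. Of each list, the 2 tested genes with the largest absolute difference against IgG1 and IgG2 were named, since none was called. Beside these, every member on every array, *Terf2* and, for the 3 widest-ranging members, the 2 nearest profiles of other families are named. *Prkch*, *Prkci*, *Nrgn* and *Add2* were named after their values were seen. The fits were tested on simulated data. Other normalizations, background correction, filters, each array left out, the methods' ANOVA, a replicate block and ways of treating the arrays named IgG3 were tried.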

Additional observations from a re-analysis of the deposited data

How the results depend on the processing

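Against IgG1 and IgG2, 14 probes were called, and the count was 554 after quantile normalization, 102 with background correction (neqc) and quantile normalization, 0 after median centring, 0 without normalization, 36 without the detection filter, 39 with 3 groups in 1 fit of all 7 arrays, and 0 by the methods' ANOVA with Benjamini-Hochberg adjustment or 693 without it, an alternative chosen after seeing the data. Leaving out 1 array gave 0 to 298 probes. Of the members 0 were called as reported, 2 (*Prkce* and *Prkcz*) after quantile normalization, 1 (*Prkce*) with background correction, 1 (*Prkce*) without the detection filter, 3 (with *Prkar2b*) by the unadjusted ANOVA, and 0 to 1 on leaving out 1 array (*Prkce* without IgG1 or without IgG2). A replicate block on the shared numbers called 648 probes and 2 members (*Prkce* and *Prkcz*). The members were chosen with this comparison known, so nothing is read from which of them were called. The labels do not say that a number marks a shared culture, and over 9187 probes the deviations of same-numbered arrays correlated at 0.278 in 2 pairs.

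Against 5 IgG arrays, 3 probes were called, and 5 after quantile normalization, 10 with background correction, 0 after median centring, 0 without normalization, 0 among probes detected on all 7 arrays, 852 by the unadjusted ANOVA, 0 with the arrays named IgG3 averaged to 1, 1 with them as a random block, and 0 to 1 on leaving out 1 array. No member was called under any of these. The cause of these shifts was not tested. Against IgG1 and IgG2, *Prkce* (0.65 to 0.92), *Prkcz* (-0.60 to -0.45), *Prkar2b* (0.25 to 0.37) and *Prkaca* (-0.39 to -0.23) kept their sign in 12 of 12 alternatives. Against 5 IgG, *Prkcb* and *Prkaca* kept theirs in 15 of 15, *Prkce* in 13, *Prkcz* in 12 and *Prkar2b* in 8. These counts include settings that leave a difference unchanged by construction, where its sign could not turn. Such settings are the filters, the deposited Z-scores and, against IgG1 and IgG2, the replicate block. *Prkca* and *Prkar2a*, near background, allow no order between groups.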
